A study of Caenorhabditis elegans with 9 samples.

Results

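The control transcriptome described here came from wild-type first-stage (L1) larvae of *C. elegans* treated with *gfp*(RNAi), which is the reference in a study of the chromatin factors LET-418 and MEP-1. The members were the 3 arrays that the labels place in the *gfp*(RNAi) group, out of 9 arrays in all. The labels number them as replicates 1 to 3, and the methods describe 3 independent batches of worms. Here the replicate number was taken as the batch number. That arrays of different groups with the same number share a batch is assumed, as the labels do not say so. N2 Bristol worms were kept from the L4 stage at 25 °C on HT115 bacteria that expressed *gfp* double-stranded RNA, their eggs were released by bleaching and hatched without food, and the L1 larvae then fed for 3 h on the same bacteria before total RNA of whole worms was taken. The *let-418*(RNAi) and *mep-1*(RNAi) arrays were made from N2 larvae raised in the same way on the other dsRNA bacteria. They enter only the scaling to a common mean, the batch test and a comparison of the order of batches. No signal level of a knockdown was compared with the control.

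A newly hatched larva that has not fed arrests its development, and food lifts the arrest. The L1 larva already has working muscle, gut, epidermis and neurons, while its germ line consists of the primordial germ cells, which start to divide after feeding. It wears a cuticle made mostly of collagens, which is shed and replaced at each molt. Wild-type worms carry no *gfp* gene, so *gfp* dsRNA serves as a control for the feeding of dsRNA itself.

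Each value is the brightness of a probe set on an Affymetrix array, multiplied so that the 9 arrays had an equal mean after 2% of the values had been cut from each end (324 in array units). Before that step the trimmed mean of the 3 control arrays lay between 321 and 409.6. Of 22548 probe sets, 20766 named 1 gene, and 17118 genes were ranked by their brightest probe set. Brightness depends on the probes as well as on the RNA, so a rank is a rank of array signal and not of transcript number: among the 2981 genes with several probe sets, the brightest exceeded the dimmest by a median of 1.76-fold, and by at least 2-fold in 42.2% of them. In RNA from whole larvae, fewer cells of a type and less RNA per cell cannot be told apart. The methods describe the batches as independently collected worms used as biological replicates, and in the spread between arrays biological and technical variation cannot be told apart.

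The mean signal of a gene over the 3 arrays ran from 0.244 to 15447, with a median of 90.4. The 75th percentile was 372, the 90th was 1016 and the 99th was 6535. Signal was concentrated in few genes: 1738 genes (10.2%) exceeded 1000 and 71 exceeded 10000. The 100 highest genes held 14.5% ± 0.973 (SD, n = 3) of the summed signal, against 0.497% ± 0.0323 for the 4279 genes in the lowest 25%. That lowest 25%, at a mean signal of 19.5 or less, is called the floor below, and by construction it holds 25% of all genes. Across genes, Spearman's rho was 0.977 between batches 1 and 2, 0.972 between 2 and 3 and 0.965 between 1 and 3, given as a description since genes are not independent replicates.

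**Figure D1:**
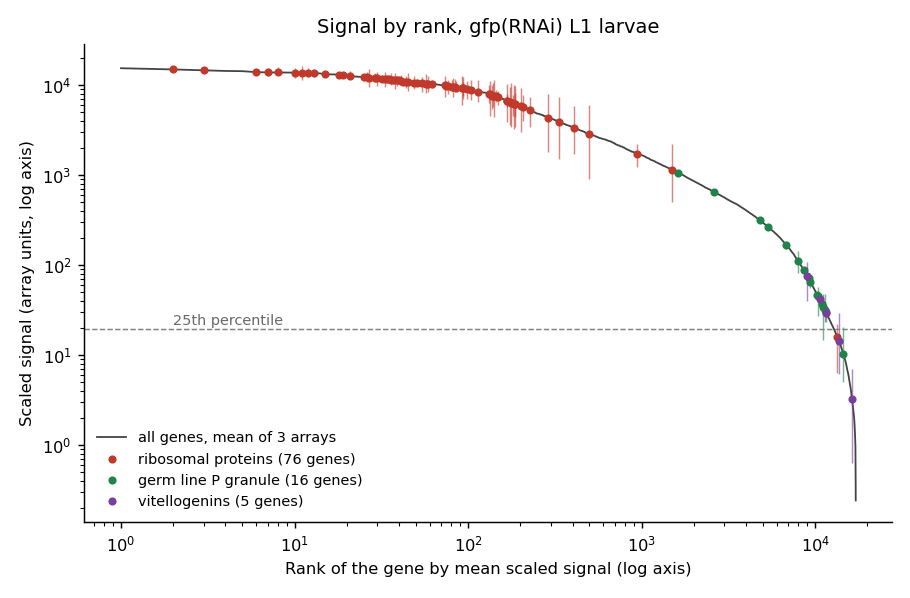
Mean scaled signal (array units, log axis) of 17118 genes against rank (log axis) in *gfp*(RNAi) L1 larvae; points are genes of 3 lists and vertical lines span the 3 arrays. Ribosomal protein genes fill the upper end apart from *rpl-42* below the dashed 25th percentile (19.5), while P granule genes and vitellogenins lie further down.

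The highest genes of the L1 larva encoded ribosomal proteins, cuticle collagens, translation elongation factors, muscle proteins and gut enzymes. Of the 25 genes of highest mean signal, 14 were in the ribosomal protein list, and *rplp-0* and *rpsa-1*, whose current names fall outside the list, also encode ribosomal proteins. The highest gene was *col-125*, a cuticle collagen, at 15840.4, 14869 and 15633 in batches 1, 2 and 3. *rpl-3*, a protein of the large ribosomal subunit, followed at 15526, 15272 and 14123, and *rps-4*, of the small subunit, at 15831, 14466 and 13626. These 3 genes did not separate from each other: their ranges over the arrays overlapped, as did those of all 24 of 24 neighbouring pairs in the 25 highest, so the order within this group is not resolved. Even so, 16 genes were among the 25 highest of every array, and 69 among the 100 highest of every array.

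The other members of the 25 highest fell into a few roles. *eef-1A.1*, which carries tRNAs to the ribosome, and *eef-2*, which moves it along the mRNA, gave 14327 ± 1261 and 13179.6 ± 480.0 (mean ± SD, n = 3). *asp-1*, an aspartyl protease of the intestine, gave 14416, 13781 and 13309, and *mlc-2*, a myosin light chain of muscle, gave 15065, 12985 and 12535. The highest array over the lowest was 1.08 for *asp-1* and 1.202 for *mlc-2*. *icl-1*, the enzyme of the glyoxylate cycle that allows sugar to be made from stored fat, reached 14338, 13700 and 10417, with batch 3 below the other arrays. The collagen *sqt-3* gave 15065, 12975 and 9492, the widest ratio of the 25 at 1.59, and *col-93* gave 15840.4, 13529 and 13847. *rack-1*, a scaffold protein that sits on the ribosome, gave 12451 ± 990.4. The remaining genes of the 25 were *rps-3A*, *rpl-15*, *rpl-7*, *rps-6*, *rpl-21*, *rpl-19*, *rpl-8*, *rps-3*, *rpl-7A*, *rps-2*, *rpl-5* and *rpl-13*, all ribosomal, with means from 12239.9 ± 1102 to 13986 ± 887.5.

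**Figure D2:**
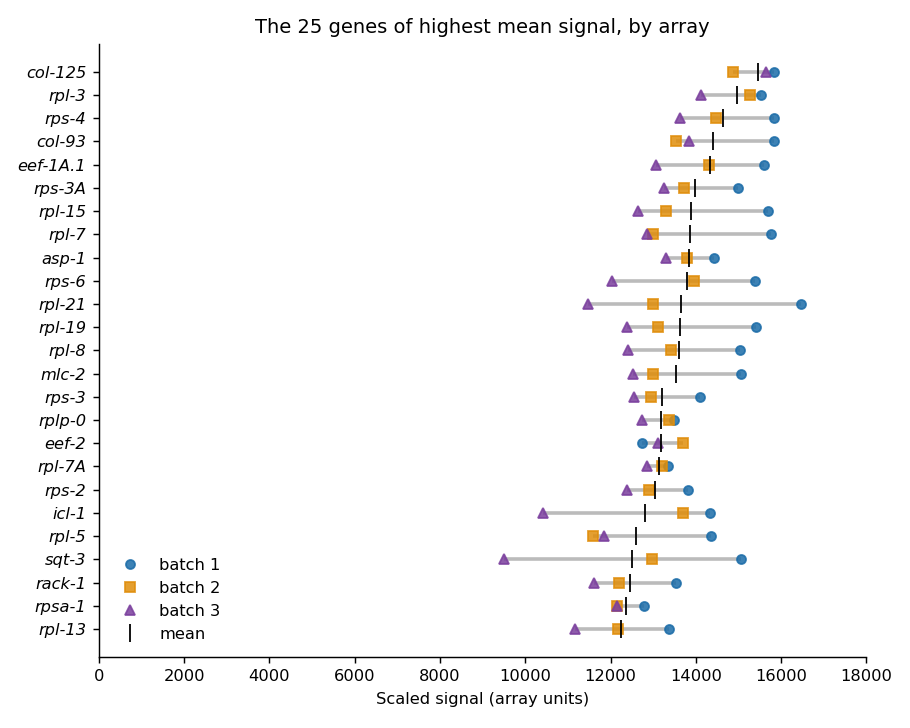
Scaled signal (array units) of the 25 highest genes in each of the 3 *gfp*(RNAi) arrays; symbols are batches, grey lines span the arrays and black ticks are means. The ranges of neighbouring genes overlap throughout, and *sqt-3* and *icl-1* have the batch 3 array farthest below the others, at 9492 and 10417.

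Among the 100 highest genes, 49 of the 76 measured ribosomal protein genes were found, with 10 cuticle collagens and 4 body wall muscle genes. The list as a whole had a median signal of 10119, at the 99.6 percentile, and 75 of its 76 genes exceeded the 75th percentile. The exception was *rpl-42* at 19.5, 22.2 and 6.41 with a mean near the floor. Ribosomal protein genes held 10.96% of the summed signal in batch 1, 9.03% in batch 2 and 8.03% in batch 3. Genes outside the ribosome in the 100 highest included *crt-1*, which encodes the calcium-binding chaperone calreticulin, at 12119 ± 1234, *far-1*, a secreted fatty acid and retinol binding protein, at 10909.6 ± 1324, *gpd-3*, a glyceraldehyde-3-phosphate dehydrogenase, at 10806 ± 881, and *hsp-1*, the constitutive Hsp70 chaperone, at 10554 ± 91.2. Probe sets that name several genes could not enter the ranking: they made up 14 of the 100 brightest probe sets, and 27 of the 100 were of the type that can bind related transcripts (x_at), against 5.44% of all probe sets.

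The machinery of translation and energy supply lay high as a whole. The 37 translation factors had their median at the 90.5 percentile and the 33 aminoacyl-tRNA synthetases, which charge tRNAs, at the 92.4 percentile, with none near the floor in either list. The vacuolar ATPase, a proton pump, had 17 of 18 subunit genes above the 75th percentile, led by *vha-12* at 8281, 8003 and 8386. Its exception was *vha-18* at 53.1, 46.5 and 45.1. Glycolysis (97.0), the respiratory chain and ATP synthase (95.5) and the proteasome (94.6) followed by median percentile. Several low members of these lists were second copies of a gene. *pfk-1.2* gave 21.2, 5.06 and 18.8 beside 2389, 2771 and 3172 for *pfk-1.1*, both phosphofructokinases, and *rpn-6.2* gave 39.9, 55.4 and 25.0. *cyc-2.2*, a cytochrome c gene, gave 10.6, 1.59 and 6.30 beside 11411, 8342 and 6976 for *cyc-2.1*.

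Genes of the mitochondrial genome were also bright. The array named 8 of them alone, and their median signal was 7509.6. *ND4*, a subunit of complex I, gave 10949.8, 10094 and 10401, and *COX1*, the catalytic subunit of complex IV, gave 9161, 9799 and 10709. *ND5*, another subunit of complex I, gave only 174, 137 and 191, and was the only one of the 8 below the 75th percentile.

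Markers of the tissues of an L1 larva were present, and those of body wall muscle stood highest. The 25 muscle genes had a median signal of 5730.3 at the 98.8 percentile, and 22 of them lay above the 75th percentile. *unc-54*, the major myosin heavy chain of body wall muscle, gave 8066, 8897 and 8559, and *unc-15*, which encodes paramyosin, gave 8651, 8446 and 8789. *pat-10*, the troponin C of body wall muscle, gave 11225, 8931 and 9895. These filament genes were bright in every array, whereas *hlh-1*, the MyoD homologue that specifies muscle, gave 61.8, 50.6 and 56.0, the lowest of the list.

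Intestine and epidermis came next. The 20 intestinal genes had a median percentile of 93.7, with *act-5*, the actin of microvilli, at 8644, 9468 and 9705, and *cpr-1*, a cathepsin B-like protease, at 6284, 5829 and 6883. *elt-2*, the GATA factor that drives intestinal genes, was far lower at 236, 181 and 164. The 18 epidermal genes had a median percentile of 93.6. *noah-1*, a component of the apical extracellular matrix, gave 6974, 6484 and 5185, and *lin-26*, a transcription factor of epidermal fate, gave 1602, 1258 and 1464. None of the genes in the muscle, intestine and epidermis lists was near the floor.

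Neuronal and pharyngeal genes covered a wide range. Of 29 neuronal genes, 15 lay above the 75th percentile and the median was at the 78.9 percentile. *egl-3*, the proprotein convertase that processes neuropeptides, gave 3622, 4818 and 4302, and *snb-1*, which encodes synaptobrevin, gave 2837, 2766 and 2570.2. Lower members included *tph-1*, the tryptophan hydroxylase of serotonergic neurons, at 45.02, 98.6 and 138, and *cat-2*, the tyrosine hydroxylase of dopaminergic neurons, at 66.3, 103.2 and 92.7. The lowest was *unc-31*, which acts in dense core vesicle release, at 13.6, 31.6 and 25.8. In the pharynx, the myosin heavy chain genes *myo-1* and *myo-2* gave 2894, 3554 and 4843 and 1549, 2169 and 3172, with batch 3 highest in both, while *pha-4*, the organ identity factor, gave 323, 389 and 334. The pharyngeal troponin genes *tnt-4* and *tni-4*, at 1398, 2071 and 2693 and 1456, 1810.2 and 2684, had the same order of arrays as the myosins. The 3 coelomocyte genes, markers of scavenger cells of the body cavity, were *cup-4* at 247, 220.1 and 232, *lgc-26* at 221, 241 and 194 and *unc-122* at 149, 169 and 236. Markers of glia and of the excretory system had a median at the 68.2 percentile, from *exc-4*, which shapes the excretory canal, at 101 ± 7.11, to *vha-5* at 1442 ± 181.

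Genes of oocytes, sperm and adults lay mostly below the median gene, while those of the germ line P granules lay near the middle of the ranking. The 16 P granule and germ line genes had a median signal of 68.2 at the 45.8 percentile, and their summed signal lay between 2909 and 3123 in the 3 arrays. Of these genes 1 was near the floor and 2 lay above the 75th percentile, *cgh-1* and *car-1* (615, 647 and 684). *glh-1* and *pgl-1*, which encode core P granule proteins, gave 250.0, 257 and 289.8 and 164, 184 and 153. *cgh-1*, an RNA helicase of the same granules, was the highest at 1070.4, 1114 and 998, and *nos-2*, a Nanos homologue of primordial germ cells, gave 34.3, 30.6 and 25.8. Oocyte and early embryo genes had 0 of 22 members above the 75th percentile, with *mex-3*, an RNA-binding protein, highest at 332, 356 and 348 and *oma-1*, which acts in oocyte maturation, lowest at 6.37, 6.72 and 17.8. Meiosis genes had 1 of 21, namely *him-17* at 373, 395 and 504, and *syp-1*, of the synaptonemal complex, gave 27.1, 65.8 and 52.3.

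Markers of adults, sperm and early embryos checked the labelled stage. No gene of the vitellogenins, the yolk proteins made by the adult intestine, had a mean above that of the median gene: *vit-6* gave 79.9, 109.7 and 40.3, *vit-4* 42.2, 43.0 and 39.8, *vit-5* 37.5, 23.1 and 27.1, *vit-1* 7.92, 6.21 and 29.2 and *vit-2* 2.08, 0.641 and 7.03. The 5 genes summed to 143 to 183 per array. Of 45 major sperm protein genes and small sperm genes, 14 were near the floor and the highest was *msp-59* at 127, 123 and 129. These genes, like the histones, have near-identical copies, which the probes may not tell apart. The transient genes of the early embryo had 8 of 14 members near the floor, with *end-1*, an endoderm GATA factor of the early embryo, highest at 76.5, 69.3 and 28.9. Of the genes of later stages, *col-19*, an adult collagen, gave 9.91, 25.97 and 4.15, and *bli-1*, another adult collagen, gave 18.7, 8.35 and 18.9, whereas *fos-1*, which encodes a transcription factor used later in the anchor cell, gave 2096, 1557 and 1420.2.

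Cell cycle genes lay above the median gene for the most part, whereas fasting genes covered a wide range. Cell cycle and replication genes had a median at the 79.1 percentile, with 5 of 26 below the median gene and 0 near the floor. *pcn-1*, which encodes the replication clamp PCNA, gave 1448, 1337 and 1546, and *rnr-1*, the large subunit of ribonucleotide reductase, gave 1996, 1765 and 1864. *cye-1*, which encodes cyclin E, was the lowest at 44.96, 38.2 and 30.5, and *cki-1*, the inhibitor that holds arrested L1 cells, gave 738, 667 and 477. Of the 30 genes of fasting and L1 recovery, with a median at the 69.7 percentile, 2 were near the floor and 10 lay between the floor and the median gene. Among them, *pck-1*, phosphoenolpyruvate carboxykinase, gave 3699, 3651 and 3289. *acs-2*, an acyl-CoA synthetase of fat breakdown, gave 2604, 3058 and 735, and *gpdh-1*, which makes glycerol under osmotic stress, gave 69.9, 98.4 and 603. In these last 2 genes the batch 3 array stood apart from the other arrays, low in *acs-2* and high in *gpdh-1*. The insulin receptor gene *daf-2* gave 29.8, 56.9 and 28.5, and *daf-16*, the FOXO transcription factor that it holds in check, 628, 661 and 801. Of 24 insulin-like peptide genes, 8 were near the floor, and *ins-30* was the highest at 627, 555.4 and 447.

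The genes whose knockdown the study addressed were well above the floor in the control. *let-418*, which encodes a Mi-2 chromatin remodeller, gave 815, 1012 and 917, and *mep-1*, which encodes a zinc finger partner of LET-418, gave 1555, 1529 and 1407. Both varied little, with the highest array over the lowest at 1.24 and 1.11. Of the other subunits of the MEC and NuRD complexes, *hda-1*, a histone deacetylase, gave 849.8, 958 and 904, and *lin-53*, an RbAp48 homologue, 1415, 1536 and 1572. *rba-1*, a relative of *lin-53*, gave 768, 846 and 889.9. *chd-3*, which encodes the second Mi-2 protein, gave 761, 832 and 841, close to *let-418*. Of the MTA homologues, *egl-27* gave 1787, 1706 and 1408 and *lin-40* gave 206, 218 and 251. The deacetylases *hda-2* and *hda-3* gave 220.5, 202 and 202 and 450.4, 491 and 518. The paper found no interaction of the products of *rba-1*, *egl-27*, *hda-2* and *hda-3* with LET-418, and lists these genes as homologues outside NuRD. All 10 genes of the list, these homologues included, were above the median gene, 8 of them above the 75th percentile. The median of their highest over lowest ratios was 1.14. It was 1.36 for all genes above the floor and 1.27 for all genes above the 75th percentile, where the spread was smaller.

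Genes that serve as references in qRT-PCR, of which 6 of the 8 listed were measured, had a median ratio of 1.38. They varied more than the genes of the MEC and NuRD list, and about as much as all genes above the floor (1.36). The paper normalized its own qRT-PCR to *act-1* and *ama-1*, of which only *ama-1* is among the 6. *tba-1*, an alpha tubulin, gave 7066, 7543 and 6633, and *cdc-42*, a small GTPase, gave 1144, 1240.0 and 1517. *ama-1*, the large subunit of RNA polymerase II, gave 318, 380.5 and 510.1, and *pmp-3*, a peroxisomal transporter, gave 464, 664 and 600.0. *eif-3.C*, of an initiation factor, gave 2183, 2360.2 and 2684, and *rbd-1*, an RNA-binding protein of ribosome assembly, gave 178, 286 and 364. The batch 1 array was the lowest for 5 of these 6 genes, and *rbd-1* had the widest ratio at 2.04. In the RNAi pathway, *rde-1*, the Argonaute of exogenous dsRNA, gave 540.4, 683 and 673, *rde-4*, its dsRNA-binding partner, 722, 642 and 736, and *rrf-1*, the somatic RNA-dependent RNA polymerase, 202, 179 and 287. *ego-1*, a germ line polymerase of the same family, gave 40.4, 32.4 and 54.4.

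The middle of the ranking held regulators and families with few bright members. The genes nearest the median were *pugs-9*, *ksr-2*, *nssp-3*, *F42A9.8* and *C56G2.15*, of which *ksr-2*, which encodes a scaffold of Ras signalling in the germ line, gave 105, 89.7 and 76.9. Nuclear hormone receptors had a median percentile of 48.0 over 254 genes, homeobox genes of 45.9 over 60, ligand-gated channels of 49.3 over 91 and potassium channels of 50.3 over 62. A few members lay far above the rest: *nhr-49*, a receptor that controls fat metabolism, gave 2531, 3074 and 3071, and *ceh-20*, a Pbx homologue, gave 1283, 1299 and 1381. *twk-18*, a potassium channel of body wall muscle, gave 1416, 1394 and 1631, and *unc-49*, the GABA receptor of body wall muscle, gave 841, 736 and 739. Neuropeptide genes lay higher, at the 74.0 percentile over 86 genes, with *flp-9* at 1613, 1319.6 and 1268 and *flp-1* at 1475, 1297 and 1068.

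Cuticle collagens spanned the whole range, unlike the families above. Their median percentile was 53.3 over 145 genes, yet 10 lay in the 100 highest and 32 (22.1%) lay near the floor. Below *col-125*, *col-93* and *sqt-3*, *col-17* gave 15094, 13035 and 7058. At the low end *col-78* gave 2.09, 1.78 and 2.30 and *col-35* gave 3.56, 3.10 and 2.69. The detoxifying families were intermediate, with cytochromes P450 at the 54.3, UDP-glucuronosyltransferases at the 70.6 and glutathione S-transferases at the 73.6 percentile.

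Several large families of nematode genes had a greater share of members near the floor than all genes did. Of 1282 chemoreceptor genes, 860 (67.1%) were near the floor, against 25% of all genes, and 5 were above the 75th percentile. The highest of these was *srr-4* at 3727, 3126 and 3381, and *odr-4* and *odr-8*, which the list holds although they help receptors reach the cilium rather than being receptors, gave 607, 673 and 627 and 485, 436 and 481. F-box genes had 53.9% of 310 members near the floor. Of the MATH and BTB domain genes 60 (58.3%) lay there too, as did 48.6% of 220 C-type lectins and 52.2% of 23 *pals* genes. Single members of these families were bright, such as the lectin *clec-63* at 8741, 9249.5 and 8654 and *math-33* at 966, 1131 and 1361. The 5 lowest genes were *ceh-7* at 0.316, 0.371 and 0.0449, *fbxb-22* at 0.397, 0.243 and 0.249, *C02E7.8* at 0.193, 0.237 and 0.545, *C08B6.6* at 0.315, 0.414 and 0.307 and *fbxa-56* at 0.496, 0.223 and 0.355. Such values lie in the range where arrays disagreed most and carry no order among themselves. Genes known by a sequence name alone formed 51.2% of the lowest 25% and 23.8% of the highest 25%.

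**Figure D3:**
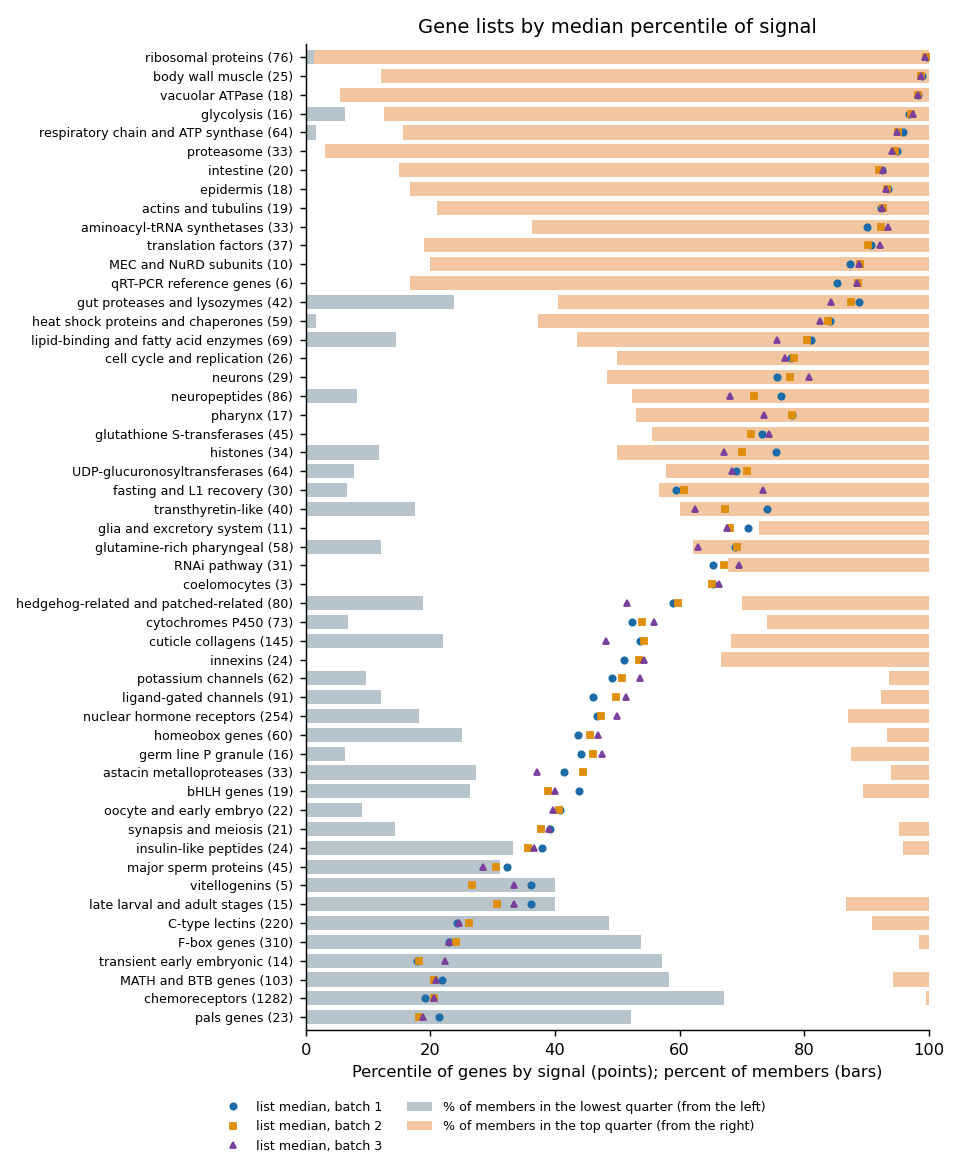
Median percentile of signal of each of 52 gene lists in the 3 arrays (points, percentile of all genes), with the percent of members in the lowest 25% of genes (grey, from the left) and in the highest 25% (orange, from the right); numbers of measured members are in brackets. Ribosomal proteins (99.6) and body wall muscle (98.8) stand at the top, chemoreceptors (20.1) and *pals* genes (18.8) at the bottom.

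Signal also differed between chromosomes as named in the RefSeq table (assembly WBcel235). Genes of chromosome III had the highest median at 187 (2250 genes), followed by I at 135, X at 121 and IV at 97.8. Chromosome II had 68.6 and V the lowest at 41.2 (4315 genes), with 34.3% of its genes near the floor against 15.6% on III. Chemoreceptor genes made up 20.5% of the genes of V, and without them its median was 77.4, against 189.7 for III. Among the nuclear chromosomes V remained the lowest and III the highest without that family, though II lay close to V at 83.9. With the chemoreceptors counted, V was also the lowest and III the highest in each of the 3 arrays.

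The spread over the 3 batches depended on the signal. With genes in 10 bins of equal number by mean signal, the median ratio of the highest over the lowest array was 2.84 in the lowest bin, 3.65 in the next, 1.45 in the fifth and 1.25 in the highest. At least a 2-fold spread was seen in 69.6% of genes of the lowest bin and in 6.48% of the highest. Of the genes near the floor, 69.9% spread at least 2-fold, so that their order is not resolved by these arrays.

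**Figure D4:**
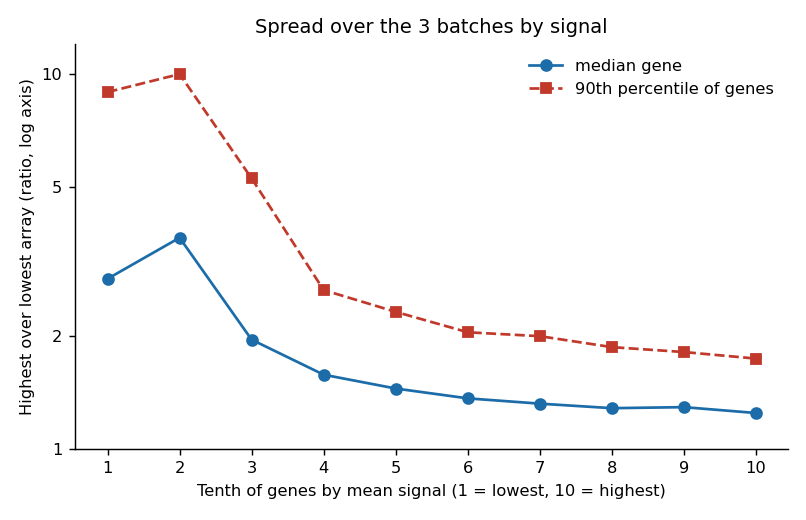
Ratio of the highest over the lowest of the 3 *gfp*(RNAi) arrays (log axis) for the median gene and the 90th percentile of genes in 10 bins of equal number by mean signal, from the lowest (1) to the highest (10). The median falls from 3.65 in the second bin to 1.25 in the highest.

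Above the median, 713 of 8559 genes (8.33%) spread at least 2-fold between arrays. The batch 1 array was the highest in 489 of them and the batch 3 array the lowest in 559. The count was 115 without the batch 3 array, 328 without the batch 1 array and 653 without the batch 2 array, so the pair of batches 1 and 3 alone gave most of it. The steadiest genes above the median were *nhr-40*, *nobh-1*, *cogc-6*, *lin-24* and *upb-1*, each within 1.01-fold over the 3 arrays. *upb-1*, which encodes beta-ureidopropionase of pyrimidine breakdown, gave 3263, 3261 and 3282.

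Above the median, the 10 genes of largest ratio included small heat shock genes and genes known by a sequence name alone. *hsp-16.41* and *hsp-16.2*, which encode small heat shock proteins that are induced by stress, gave 979, 662 and 53.4 and 1066, 710.2 and 108. *sip-1*, another small heat shock protein gene but not among the 10 of largest ratio, gave 356, 388 and 95.0. In all 3 genes the batch 3 array was far below the other arrays. The constitutive chaperone genes did not share this: *hsp-1* gave 10449, 10607 and 10606 and *hsp-90* gave 10036, 9466 and 9302. *grl-16*, a hedgehog-related gene, gave 1384, 864 and 137, and *lgc-21*, a ligand-gated channel gene, gave 592, 341 and 53.7. The other genes of largest ratio were *R12E2.14* at 408, 101 and 10.6, *C46H11.7* at 231, 208 and 9.67, *K01D12.9* at 495, 135 and 21.6, *H23N18.5* at 752, 496 and 56.6, *R12E2.7* at 179, 80.2 and 15.1 and *C02E7.6* at 2147, 665 and 218. In each of the 10 genes of largest ratio batch 1 was the highest and batch 3 the lowest. *mtl-2*, a metallothionein gene of the intestine, gave 3749, 1061 and 478, with the same order of arrays.

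Whole families differed between the batch 1 and batch 3 arrays. Over all genes above the floor the median log2 difference, batch 1 minus batch 3, was -0.01, and 7.66% of these genes were at least 2-fold higher in batch 1 and 2.4% at least 2-fold higher in batch 3. Hedgehog-related and patched-related genes, whose products act in the extracellular matrix and in molting, had a median of 0.78, with 30 of 65 genes at least 2-fold higher in batch 1 and 0 in batch 3. *grd-14* gave 970.0, 412 and 112, *grl-7* gave 2506, 2208 and 656 and *ptr-16* gave 219, 171 and 23.5, whereas *grl-21*, the brightest of the family, gave 3203, 3231 and 3599. The family thus held members that were several times lower in the batch 3 array beside members that were not.

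Cuticle collagens showed the same split. Their median log2 difference was 0.66, with 35 of 113 genes at least 2-fold higher in batch 1 and 3 in batch 3. *col-41* gave 4471, 3929 and 739, *col-48* 665, 393 and 88.6 and *col-104* 541, 241 and 56.5, and *rol-6*, a collagen that shapes the body, gave 5043, 4472 and 1389. *col-125* differed by 0.02 on the same log2 scale. Astacin metalloproteases had a lower median of 0.37, with 9 of 24 genes at least 2-fold higher in batch 1 and 3 in batch 3. Glutamine-rich genes had 0.21, with 14 of 51 at least 2-fold higher in batch 1 and 0 in batch 3, among them the pharyngeal gene *abu-14* at 1706, 1176 and 273. *noah-1* and *noah-2*, of the apical matrix, gave 6974, 6484 and 5185 and 3820.2, 4187 and 2867.

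Families of short genes also stood higher in batch 1. The medians were 0.79 for histones, 0.65 for neuropeptides, 0.54 for transthyretin-like genes and 0.52 for ribosomal proteins. All 75 ribosomal genes above the floor were higher in batch 1 than in batch 3, 15 of them at least 2-fold. The largest difference was in *rpl-29* at 6055, 1618 and 911, followed by *rps-28* at 7488, 2642 and 1525, while the longer *rpl-3* gave 0.14 on the log2 scale. On the other side, neuronal markers had a median of -0.43, with 5 of 29 genes higher in batch 1, potassium channels -0.42 and aminoacyl-tRNA synthetases -0.34. Neuropeptides and neuronal markers thus had medians of opposite sign. With the signals as deposited the median of all genes above the floor moved to -0.32, and with quantile normalization to -0.04, but each family named in this paragraph and in the preceding 2 stayed on the same side of that median, for example hedgehog-related genes 0.79 and 0.71 above it.

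The genomic span of the genes, taken from the RefSeq table, moved with this difference. Among genes above the median, split into 10 bins of equal number by span, the median log2 difference was 0.59 in the shortest bin (median span 767 bp), where 240 of 855 genes were at least 2-fold higher in batch 1. It was 0.16 in the second bin, 0.00 in the third and -0.24 in the longest (median span 12739.5 bp), where 10 of 854 were. Ribosomal genes up to the median span of their list had a median of 0.79, and longer ones 0.31. Each of the next lists was set beside other genes whose spans lay within the middle of its own range. Histones (median span 503 bp) had 0.78 and the genes beside them, which were longer (748 bp), 0.61. Hedgehog-related genes above the median had 0.83 at 3771 bp, and the genes beside them had -0.10 at 3009 bp. Collagens had 0.69 at 1190 bp, and the genes beside them had 0.13 at 1247 bp. Neuropeptides had 0.62 at 1078.5 bp, and the genes beside them had 0.08 but were longer (1572 bp). Neuronal markers had -0.41 at 4936 bp, and the genes beside them had -0.13 at 4154 bp. Potassium channels had -0.39 at 8277 bp, and the genes beside them had -0.15 but were shorter (5659 bp). Span is given here as a measured property, and its part in the difference between the arrays was not tested.

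**Figure D5:**
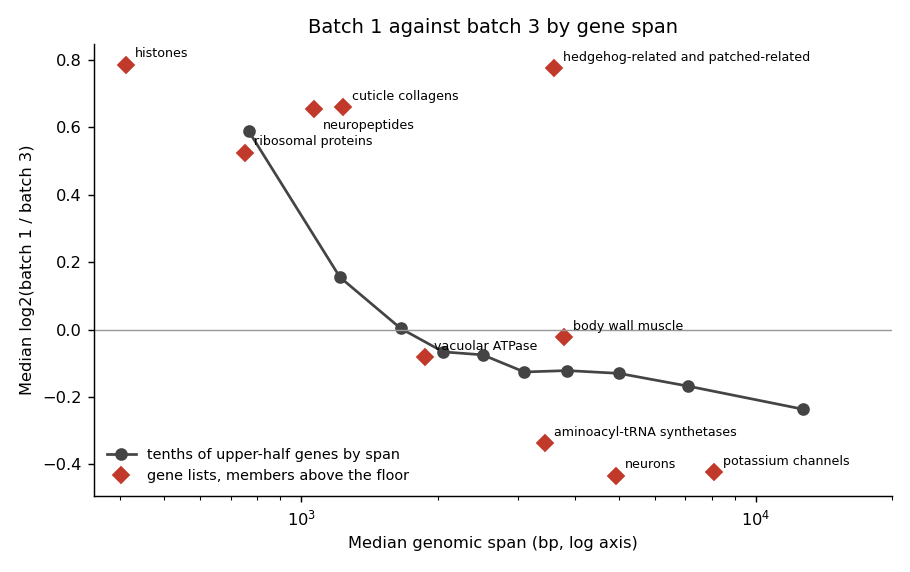
Median log2 ratio of batch 1 over batch 3 against median genomic span (bp, log axis) for genes above the median signal in 10 bins by span (line) and for 10 gene lists above the floor (diamonds). The bins fall from 0.59 to -0.24, and hedgehog-related genes lie apart from the line at 0.78.

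A test over all 9 arrays asked whether the batches differed beyond the residual spread. It took the shift of a batch to be the same in every group and did not test that. It was limma's F-test with the group means and the batch as a replicate block, which pairs the arrays of the same replicate number. In this F-test 0 of 22548 probe sets (0%) passed an adjusted p of 0.05. The smallest adjusted p was 0.608, and 1633 probe sets had an unadjusted p under 0.05. With the signals as deposited 3 probe sets passed. The same test was run on simulated data over 22548 probe sets. Of these, 200 were shifted in batch 3 alone, all drawn from probe sets above the median in mean log2 signal. The test recovered 91.5% of 4-fold changes, with 15 false calls, and 0% of 2-fold changes. A 2-fold shift of so few probe sets was thus not detectable in that setting. The simulated noise was the spread within groups, which holds any batch difference. Neither a broader shift nor a shift of probe sets below the median was simulated. Among probe sets above the median probe set in mean signal over the 9 arrays, those with the smallest unadjusted p named *T19A5.3*, *C02E7.7*, *T02H6.3*, *mtl-2*, *fip-2*, *C02E7.6*, *rpl-41.1*, *F37A8.5*, *bus-8B* and *mab-7*. *rpl-41.1*, a very short ribosomal gene, gave 2243, 686 and 506 in the controls.

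The order of batches in the control arrays was compared with that in the other arrays. Of the 547 genes above the median that were at least 2-fold higher in batch 1 than in batch 3 of *gfp*(RNAi), 322 (58.9%) were higher in batch 1 of *let-418*(RNAi) and 396 (72.4%) in batch 1 of *mep-1*(RNAi), against 47.6% and 49.01% of all genes above the median. Of the 106 genes with the opposite difference in *gfp*(RNAi), at least 2-fold higher in batch 3, 67 (63.2%) were higher in batch 1 of *let-418*(RNAi) and 46 (43.4%) in batch 1 of *mep-1*(RNAi). In the *let-418*(RNAi) arrays both sets were thus higher in batch 1 more often than all genes, whichever way they differed in the controls. Hedgehog-related genes had a median log2 difference of -0.07 in the *let-418*(RNAi) arrays and 0.31 in the *mep-1*(RNAi) arrays, beside 0.78 in the controls. Ribosomal protein genes had -0.34 and 0.10, beside 0.52, and collagens -0.24 and 0.21, beside 0.66. Neuropeptides ran the other way between these groups, at 0.20 and -0.35 beside 0.65, and neuronal markers had 0.10 and -0.20 beside -0.43. These are 1 array per batch and group, and whether the groups differ in this was not tested.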

How the data were processed

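Total RNA of whole L1 larvae was hybridised to Affymetrix *C. elegans* arrays in 3 groups of 3 arrays, and only the *gfp*(RNAi) group is described. The deposited values are probe set intensities that the authors computed with MAS5; they are linear, positive and given to 4 significant digits, and detection calls were not used here. The sources used here name no version of MAS5. No column lacked a sample (0).

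Each array was multiplied to an equal mean after cutting 2% at each end, since the deposited trimmed means differed (209 to 436 over 9 arrays). Probe sets were named through GEO's platform annotation, and 20701 of 20766 names were matched by gene identifier to the RefSeq table (WBcel235); 887 probe sets with several genes and 895 with none were left out of the ranking. A gene took its probe set of highest mean. Genes near the floor are the lowest 25%.

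The members and the 52 gene lists were chosen with earlier results of these data known, so list counts and medians carry no test. Genes named are the 25 highest, the 5 nearest the median, the 5 lowest, the ends and middle of each list, all MEC and NuRD, coelomocyte, vitellogenin and qRT-PCR reference genes, the 10 of largest and 5 of smallest ratio between arrays above the median, and the 10 of smallest p for batch (among probe sets above the median over 9 arrays); others (*pfk-1.1*, *cyc-2.1*, and single members of lists such as *elt-2*, *snb-1* or *pcn-1*) were chosen after their values were seen, for their role. The batch was tested on log2 signals with limma 3.58.1 in R 4.3.3 (group means and batch, intensity trend, F-test, Benjamini-Hochberg), after a check on simulated data. Other scalings, quantile normalization, other rules for a gene's probe sets, other floors and leaving out each array were tried. The number of arrays limits the precision.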

Additional observations from a re-analysis of the deposited data

How the results depend on the processing

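Under 4 other ways of processing, 46 to 48 ribosomal protein genes were among the 100 highest (49 in the values above) and 90 to 99 of the 100 highest genes were shared. Leaving out 1 array gave 43 to 52 ribosomal genes and 93 to 97 shared genes. The median percentile of body wall muscle genes was 98.81 with means of log2 signals and 98.79 to 98.82 with 1 array left out, against 98.78. With the floor at the 10th percentile it held 21.45% of chemoreceptor and 22.58% of F-box genes, and at the 40th 94.54% and 79.68%. With the floor at the 25th percentile, leaving out 1 array gave 64.82% to 67.86% of chemoreceptor genes and 51.94% to 54.52% of F-box genes, and the signals as deposited and quantile normalization both gave 54.19% of F-box genes. The count of genes above the median that spread at least 2-fold was 115 to 653 with 1 array left out, 948 with the signals as deposited, 702 after quantile normalization and 584 with an offset added. In the batch test, whose batch term is a replicate block (0 calls), the signals as deposited gave 3 calls; every other alternative gave 0, with 1152 to 2432 probe sets at an unadjusted p under 0.05. Over the other 47 lists the median percentile moved by -10.16 to 6.04 with 1 array left out, the lowest being the fasting list without batch 3 (59.56), and by -4.08 to 1.48 under the other settings. The cause of these shifts was not tested. Culture, extraction and hybridisation cannot be told apart within these batches.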
